A study of Mus musculus with 8 samples.

Results

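Prostaglandin synthesis and receptors were examined as 10 genes of the 22274 in the count table, found by their symbols from a list drawn up with earlier results of these data known. They are the cyclooxygenases Ptgs1 and Ptgs2, the terminal synthases Ptges, Ptgis and Ptgds, the 4 receptors of prostaglandin E2, Ptger1 to Ptger4, and Hpgd, the enzyme that inactivates prostaglandins. RNA came from primary murine cardiac fibroblasts, the matrix-producing cells of the heart in culture, of which 4 libraries were labelled GFP and 4 labelled OEIRF7. All 8 received TGF-β, a cytokine that turns fibroblasts into myofibroblasts, at 5 ng/ml for 24 h, after a virus carrying GFP or an empty vector in one group and IRF7, a transcription factor of the interferon response, in the other. There was no library without TGF-β and none without virus, so each difference below is between the 2 viruses under TGF-β. The mice of the methods had a C57BL/6 J background, and the cell experiments are described as biological replicates, fewer in number than the libraries of a group here, so which libraries were separate cultures is not known. Sex and age of the mice of origin were not given for these cultures in the sources used here. The p-values therefore measure the spread between these libraries, which may be technical.

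Prostaglandins are lipid signals made on demand. Phospholipase A2 frees arachidonic acid from membranes, a cyclooxygenase turns it into prostaglandin H2, and terminal synthases convert this into prostaglandin E2, D2, F2α, prostacyclin or thromboxane, each with its own G protein-coupled receptors. Ptgs1 is usually expressed at a steady level, while Ptgs2 is an inducible gene that responds to cytokines and growth factors, and fibroblasts are a known source of prostaglandin E2 and prostacyclin. RNA was measured here, not enzyme activity or prostaglandins.

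Total counts ran from 24454801 to 28658826 per library. Pairs of replicates differed beyond counting noise, as chi-square divided by its degrees of freedom was 2.69 to 8.67. OEIRF7 replicate 3 stood apart from the other 3 libraries of its group in 321 genes (2.37% of those tested), against 113 to 234 genes for each of the other libraries, and the results in which it stood out are given with and without it. Fibroblast markers summed to between 11951 and 12456 CPM (counts divided by the TMM-scaled library size) in the libraries labelled GFP and to between 10729 and 11226 CPM in those labelled OEIRF7, with 1 of 9 called higher and 5 lower. Among all tested genes 29.0% were called higher and 29.9% lower. Of 8 cardiomyocyte markers, 7 were too low to be tested, and Tnnt2 was the exception. Mouse Irf7 was 107, 147, 92.0 and 126 CPM in the libraries labelled GFP. In those labelled OEIRF7 it was 14.9, 14.5, 14.9 and 16.4 CPM. This was a fall by 2.96 on the log2 scale (SE 0.12, adjusted p = 7.72e-11), where the label would lead to a rise. Mouse counts would not measure a human IRF7 from the virus, and the cause of the fall of the mouse gene was not tested. If the labels were exchanged, each direction below would be reversed. The reagent list of the study names an adenovirus with human IRF7 and an adeno-associated virus with mouse Irf7, which mouse counts could measure. The paper describes an adenovirus for these cultures, and the deposited description an adeno-associated virus. Which virus the libraries received is not settled here, so the groups are called by their labels throughout.

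The level of RNA from Ptgs1, Ptgs2, Ptges and Ptgis rose in the libraries labelled OEIRF7, and that from Ptger1 fell. Ptgds, Ptger4 and Hpgd did not pass the test, and Ptger2 and Ptger3 were too low to be tested. Calls were made with edgeR's quasi-likelihood test at an adjusted p of 0.05 over 13533 tested genes. Of the 8 members that passed the filter on low counts, 4 were called higher, where 29.0% of all tested genes were, and 1 was called lower, against 29.9% of tested genes. In either direction 58.9% of tested genes were called. The 2 cyclooxygenases rose by more than 1 on the log2 scale, as 4.66% of tested genes did. In 5 of the 8 the libraries of the groups did not overlap, against 53.8% of tested genes. Since so many genes were called, these counts are not read as particular to the 10 genes, and the median log2 fold change over all tested genes was 0.0015.

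**Figure D1:**
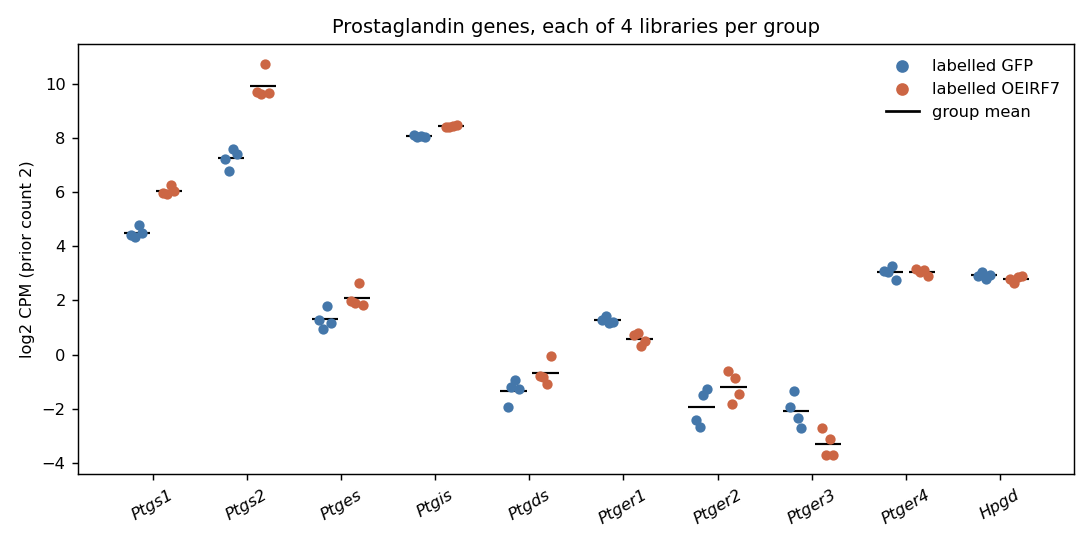
Level of each of the 10 genes in every library, as log2 CPM with a prior count of 2, for 4 libraries labelled GFP (blue) and 4 labelled OEIRF7 (orange), with a black line at each group mean. Ptgs1 and Ptgs2 are higher in each OEIRF7 library than in each GFP library, Ptgs2 stands highest in OEIRF7 replicate 3, and Ptger4 and Hpgd overlap between groups.

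The windows around the annotated start of 3 of the genes that rose are shown, for the inducible cyclooxygenase, its paralog and the inducible prostaglandin E synthase, so that their sequence may be set beside their change. Each holds 250 bases before and 50 bases after the start, from RefSeq on GRCm38.p6, at chr1:150099781-150100080 (plus strand) for Ptgs2, chr2:36230176-36230475 (plus strand) for Ptgs1 and chr2:30903248-30903547 (minus strand) for Ptges. Capitals mark letters that match a searched motif.
Ptgs2: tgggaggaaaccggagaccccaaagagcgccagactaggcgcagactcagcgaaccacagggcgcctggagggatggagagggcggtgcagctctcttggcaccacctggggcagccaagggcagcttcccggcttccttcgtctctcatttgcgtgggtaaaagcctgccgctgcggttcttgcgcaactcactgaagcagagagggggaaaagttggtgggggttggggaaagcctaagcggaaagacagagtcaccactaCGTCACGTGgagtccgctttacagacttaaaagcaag
Ptgs1: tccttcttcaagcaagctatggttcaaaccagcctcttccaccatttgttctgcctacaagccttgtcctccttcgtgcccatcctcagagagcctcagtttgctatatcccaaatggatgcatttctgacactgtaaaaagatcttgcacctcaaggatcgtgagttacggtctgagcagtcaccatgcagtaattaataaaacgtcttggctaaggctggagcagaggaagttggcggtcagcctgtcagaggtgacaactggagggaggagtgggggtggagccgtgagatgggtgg
Ptges: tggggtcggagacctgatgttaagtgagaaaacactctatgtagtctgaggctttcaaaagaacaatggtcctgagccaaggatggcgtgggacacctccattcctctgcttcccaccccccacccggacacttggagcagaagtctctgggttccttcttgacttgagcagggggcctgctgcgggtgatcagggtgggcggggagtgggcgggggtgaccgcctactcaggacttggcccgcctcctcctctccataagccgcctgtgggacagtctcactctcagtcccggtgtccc

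In the Ptgs2 window TGACG, the core of the cAMP response element, was found on the minus strand at positions 14 to 18 after the start, and it overlapped an E-box, CACGTG, at positions 17 to 22. Of all 32851 RefSeq windows of this length, 20.8% held TGACG on either strand and 7.15% held CACGTG. The windows of Ptgs1 and Ptges held none of the motifs searched, which were TGACG and the full cAMP response element TGACGTCA (1.79% of windows), the AP-1 site TGANTCA (7.81%), the E-box, TATAAA (13.6%), TTTAAA (13.2%), a strict (0.411%) and a loose (20.7%) NF-kB motif and the IRF motif (3.44%). Of the 10 genes 8 were matched to a window, and Ptgis and Ptger1 were not. Among the others, Ptgds held an AP-1 site at positions -35 to -29, Ptger3 a loose NF-kB motif at -37 to -28 and Hpgd TATAAA at 5 to 10, and Ptger2 and Ptger4 held none. The IRF motif was in none of the 8 windows. A match is a description of letters, and no match says only that they are not in these 300 bases. The annotated span of Ptges in GENCODE begins upstream of this RefSeq start, so its window describes one of its starts. That of Hpgd begins downstream of its RefSeq start and of the TATAAA. Positions count from the RefSeq starts, and where transcription begins in these cells was not tested.

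Ptgs2, the inducible cyclooxygenase, showed the largest rise of the 8 tested genes. The gene (ENSMUSG00000032487) lies on chromosome 1 of GRCm38 from 150100031 to 150108227, on the plus strand. It stood at 147, 110, 193 and 170 CPM in the libraries labelled GFP and at 815, 777, 1706 and 797 CPM in those labelled OEIRF7. The lowest OEIRF7 library was thus above the highest GFP library, and OEIRF7 replicate 3 was 2.14 times the mean of the other 3 of its group. The mean went from 155 ± 35.5 to 1024 ± 455 CPM (SD, n = 4), a log2 fold change of 2.73 (SE 0.24, 95% confidence interval 2.22 to 3.23, adjusted p = 1.63e-07), or 6.62-fold. Without OEIRF7 replicate 3 the log2 fold change was 2.36 (SE 0.12, adjusted p = 1.34e-10), or 5.15-fold. By size of the rise Ptgs2 was number 80 of the 13533 tested genes, and number 112 of 13634 without OEIRF7 replicate 3. In FPKM, which is scaled by gene length and so can be set beside other genes, Ptgs2 moved from place 2256 to place 274 of all genes in the table, or to place 360 without OEIRF7 replicate 3.

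Ptgs1, which catalyses the same reaction, rose as well and by less. It lies on chromosome 2 from 36230426 to 36252272, on the plus strand (ENSMUSG00000047250). Levels were 21.3, 20.2, 27.2 and 22.2 CPM in the libraries labelled GFP and 62.8, 60.7, 76.6 and 66.2 CPM in those labelled OEIRF7. The groups were far apart, and the spread within each was small. This was a change from 22.7 ± 3.11 to 66.6 ± 7.02 CPM (SD, n = 4), with a log2 fold change of 1.55 (SE 0.088, adjusted p = 1.69e-09), or 2.93-fold.

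Macrophages are a cell type rich in Ptgs1. Of 8 macrophage markers 4 were called higher and none lower, against 29.0% and 29.9% of all tested genes. Their summed level was 114 to 132 CPM in the libraries labelled GFP and 146 to 164 CPM in those labelled OEIRF7, and none of the 8 was at 0. Itgam went from 14.1 ± 0.705 to 29.7 ± 1.41 CPM and Mrc1 from 5.59 ± 0.536 to 11.6 ± 1.44 CPM (SD, n = 4). Adgre1 and Cd68 were also called higher, at 1.35-fold and 1.16-fold. Csf1r was at 23.1 ± 2.74 and 24.1 ± 1.17 CPM and did not pass the test (adjusted p = 0.542). Ptprc, C1qa and C1qb did not pass it either, with log2 fold changes of -0.08, 0.14 and -0.32. Whether these cells had a part in the rise of Ptgs1 was not tested. In bulk RNA, more cells of a type and more RNA per cell cannot be told apart.

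The ratio of the 2 cyclooxygenases shifted towards Ptgs2. Per length, as FPKM, Ptgs2 was 4.43, 3.5, 4.56 and 4.93 times Ptgs1 in the libraries labelled GFP and 8.35, 8.23, 14.3 and 7.76 times in those labelled OEIRF7. The ratio was higher in each of the OEIRF7 libraries, and replicate 3 again stood above the rest. On the log2 scale it went from 2.11 ± 0.212 to 3.23 ± 0.414 (SD, n = 4), a difference of 1.11, with p = 0.029 in an exact two-sided permutation test, the smallest that 4 against 4 libraries allow. Without OEIRF7 replicate 3 the difference was 0.909. As a share of the FPKM of both genes, Ptgs2 made up 81.1 ± 2.32% and 90.1 ± 2.25% (SD, n = 4), or 89.0 ± 0.386% (SD, n = 3) in the latter without OEIRF7 replicate 3.

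**Figure D2:**
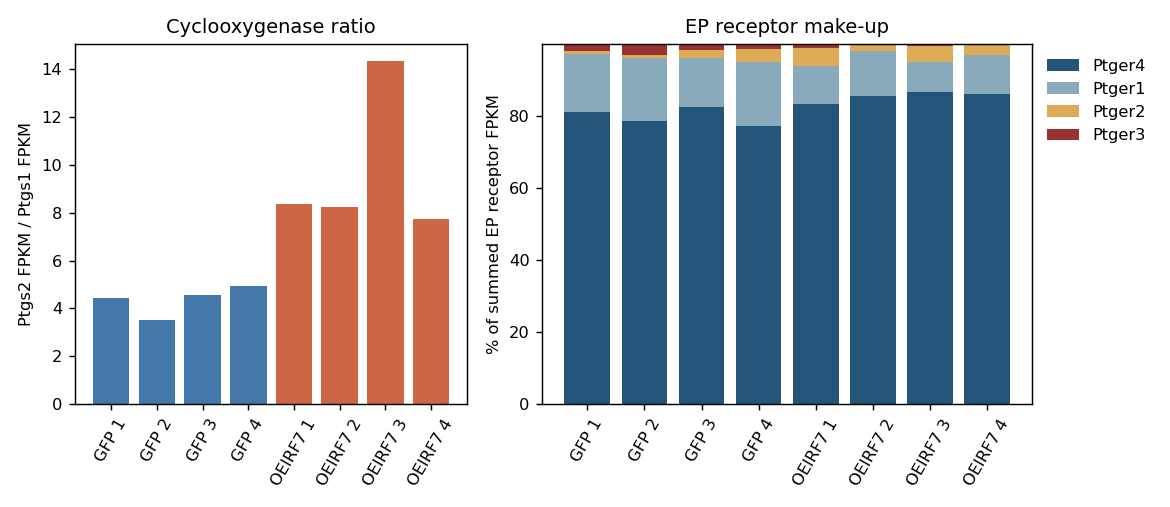
Left, the ratio of Ptgs2 FPKM to Ptgs1 FPKM in each of 8 libraries (bars from 0), between 3.5 and 4.93 in those labelled GFP and between 7.76 and 14.3 in those labelled OEIRF7. Right, the share in percent of each of the 4 EP receptor genes in their summed FPKM in each library, in which Ptger4 makes up 77.1% to 82.5% and 83.4% to 86.7%.

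Among the terminal synthases, Ptgis and Ptges rose and Ptgds stayed below the threshold. Ptgis, which encodes prostacyclin synthase, lies on chromosome 2 from 167191805 to 167240604 on the minus strand (ENSMUSG00000017969). It was at 275, 263, 266 and 260 CPM in the libraries labelled GFP and at 335, 333, 348 and 351 CPM in those labelled OEIRF7. The libraries of a group differed little, and the groups did not overlap. Its log2 fold change was small, at 0.36 (SE 0.032, adjusted p = 2.13e-07), or 1.29-fold. Per length Ptgis was the most abundant of the 10 genes in the libraries labelled GFP, with 133 ± 3.0 FPKM, and reached 176 ± 4.39 FPKM in those labelled OEIRF7 (SD, n = 4). Of the summed FPKM of Ptges, Ptgis and Ptgds, it made up 99.2 ± 0.205% and 98.9 ± 0.142%. That sum leaves out synthases outside the 10 genes, such as Akr1b3 at 227 and 417 FPKM and Ptges3 at 49.4 and 49.0 FPKM.

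Endothelial and mural cells also express Ptgis. Of 8 endothelial markers 4 were called higher and 1 lower, and their sum was 222 to 234 CPM in the libraries labelled GFP and 226 to 256 CPM in those labelled OEIRF7. Of 7 mural markers 2 were called higher and 3 lower, with sums of 125 to 137 and 107 to 129 CPM. Of 7 epicardial and mesothelial markers 2 were called higher and 3 lower, with sums of 223 to 237 and 164 to 177 CPM. Among all tested genes 29.0% were called higher and 29.9% lower, and these counts are not read as particular to the lists. None of these 22 markers was at 0 in all libraries. Cdh5, the most abundant endothelial marker, was the one called lower, at 100.4 ± 0.903 and 92.9 ± 5.36 CPM (SD, n = 4, adjusted p = 0.032). Those called higher were Kdr at 1.73-fold, Vwf at 1.40-fold, Cldn5 at 1.40-fold and Emcn at 1.22-fold. The part of such cells in the rise of Ptgis was not tested.

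Ptges, the inducible prostaglandin E synthase that often acts with Ptgs2, was scarce. The gene (ENSMUSG00000050737) lies on chromosome 2 from 30889471 to 30929863 on the minus strand. It had 2.35, 1.84, 3.40 and 2.17 CPM in the libraries labelled GFP and 3.84, 3.69, 6.09 and 3.45 CPM in those labelled OEIRF7. The groups nearly touched, with 3.40 CPM in GFP replicate 3 and 3.45 CPM in OEIRF7 replicate 4. The log2 fold change was 0.80 (SE 0.22, 95% confidence interval 0.34 to 1.27, adjusted p = 0.00502), and it was 0.58 (adjusted p = 0.0167) without OEIRF7 replicate 3. Ptgds, the lipocalin-type prostaglandin D synthase on chromosome 2 from 25466709 to 25470046 on the minus strand (ENSMUSG00000015090), had 5, 9, 11 and 9 counts against 13, 14, 10 and 22. These counts overlapped between groups. With a log2 fold change of 0.76 (SE 0.37, 95% confidence interval -0.05 to 1.56) Ptgds had an adjusted p of 0.0966. In total this was 34 against 59 counts, a depth-adjusted ratio of 1.73 (95% interval 1.12 to 2.72 for counting error only). No difference beyond the spread between libraries was shown.

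Ptgs1, Ptgs2 and Ptges shared their highest libraries. Replicate 3 was the highest of both groups for these 3 of the 10 genes, and also for Pla2g4a and Akr1b3 described below. In log2 CPM, Ptgs2 lay 0.35 above its group mean in GFP replicate 3 and 0.82 above it in OEIRF7 replicate 3, and Ptges lay 0.50 and 0.54 above. Ptgis did not show this, with GFP replicate 1 and OEIRF7 replicate 4 the highest. Whether the replicate numbers mark a shared culture or day is not given in the labels.

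**Figure D3:**
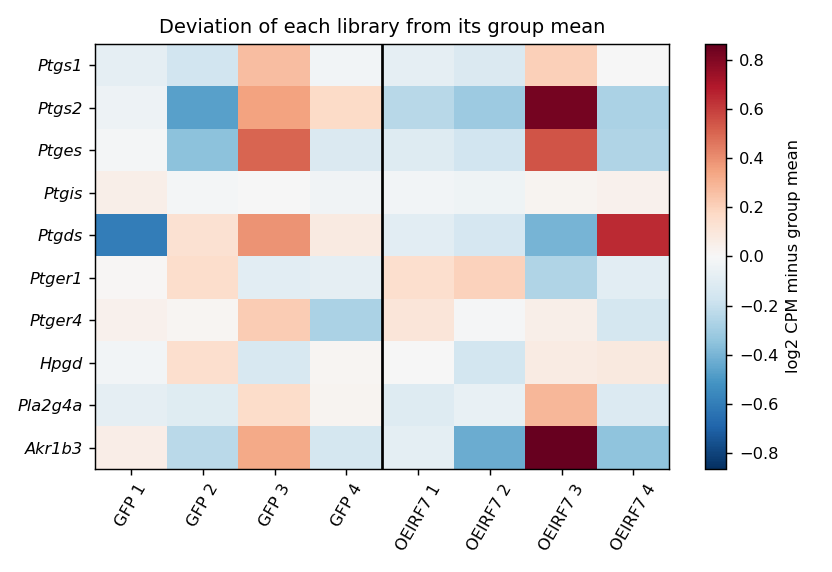
Each tested gene of the 10, and Pla2g4a and Akr1b3, in each library as log2 CPM minus the mean of its group (red above, blue below, black line between groups). Ptgs1, Ptgs2, Ptges, Pla2g4a and Akr1b3 are red in replicate 3 of both groups, with Ptgs2 at 0.35 and 0.82.

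The 4 EP receptors bind prostaglandin E2 and couple it to different signals. Ptger2 and Ptger4 raise cAMP, Ptger3 mostly lowers it, and Ptger1 raises calcium. Ptger4, on chromosome 15 from 5206661 to 5244187 on the minus strand (ENSMUSG00000039942), was the most abundant. It stood at 8.32, 8.21, 9.48 and 6.71 CPM in the libraries labelled GFP and at 8.84, 8.17, 8.52 and 7.38 CPM in those labelled OEIRF7. The groups overlapped throughout. Its log2 fold change was 0.01 (SE 0.11, 95% confidence interval -0.22 to 0.24, adjusted p = 0.945). The gene overlaps Ttc33 on the opposite strand over 11676 bases, and Ttc33 had a log2 fold change of 0.17 (adjusted p = 0.0286).

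Ptger1 fell. It was at 2.35, 2.60, 2.19 and 2.21 CPM in the libraries labelled GFP and at 1.59, 1.65, 1.18 and 1.34 CPM in those labelled OEIRF7. Each OEIRF7 library was below each GFP library. The means were 2.34 ± 0.191 and 1.44 ± 0.222 CPM (SD, n = 4), with a log2 fold change of -0.69 (SE 0.18, adjusted p = 0.00388). Ptger1 (ENSMUSG00000019464) lies on chromosome 8 from 83666678 to 83672753 on the plus strand. The strand setting of the counting was not stated, so the fall of Ptger1 is uncertain.

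Ptger2 and Ptger3 lay near the limit of detection. Ptger2, on chromosome 14 from 44988195 to 45003820 on the plus strand (ENSMUSG00000037759), had 3, 2, 7 and 9 counts in the libraries labelled GFP and 15, 6, 12 and 7 in those labelled OEIRF7. In total this was 21 against 40 counts, a depth-adjusted ratio of 1.90 (95% interval 1.09 to 3.39 for counting error only), and the libraries overlapped (p = 0.14, two-sided exact permutation test on log2 CPM). Ptger3, on chromosome 3 from 157566892 to 157645888 on the plus strand (ENSMUSG00000040016), had 5, 8, 3 and 2 counts against 2, 0, 1 and 0. The total was 18 against 3, a ratio of 0.166 (0.0314 to 0.569 for counting error only), with p = 0.057 in the exact permutation test, so that no difference beyond the spread between libraries was shown for either gene.

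In the summed FPKM of the 4 EP receptors, 3.09 ± 0.354 and 2.96 ± 0.255 (SD, n = 4), Ptger4 made up 79.8 ± 2.38% in the libraries labelled GFP and 85.4 ± 1.41% in those labelled OEIRF7. Ptger1 made up 16.3 ± 1.99% and 10.5 ± 1.66%, and this share carries the same uncertainty as the fall of Ptger1. The share of Ptger4 carries it too, since the level of Ptger4 itself was 2.47 ± 0.348 and 2.53 ± 0.192 FPKM. The remainder was Ptger2, at 1.83 ± 1.29% and 3.58 ± 1.29%, and Ptger3, at 2.09 ± 0.742% and 0.473 ± 0.592%. The shares of Ptger4, Ptger1 and Ptger3 did not overlap between groups, and those of Ptger2 did, although Ptger2 and Ptger3 rest on few counts. They are a description without a test.

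Hpgd, which oxidises prostaglandins and ends their action, did not pass the test. It lies on chromosome 8 from 56294585 to 56321043 on the plus strand (ENSMUSG00000031613) and was at 7.39, 8.29, 6.81 and 7.59 CPM in the libraries labelled GFP and at 6.90, 6.17, 7.26 and 7.34 CPM in those labelled OEIRF7. The libraries overlapped. A log2 fold change of -0.12 (SE 0.096, 95% confidence interval -0.33 to 0.08) had an adjusted p of 0.286. Ptgs2 was 7.91 ± 2.37 times Hpgd in FPKM in the libraries labelled GFP and 55.5 ± 22.4 times in those labelled OEIRF7 (SD, n = 4), with 88.8 in OEIRF7 replicate 3 and 41.0 to 47.6 in the others.

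Ordered by mean FPKM, the libraries labelled GFP ran Ptgis, Ptgs2, Ptgs1, Hpgd, Ptger4, Ptges, Ptger1, Ptgds, Ptger3 and Ptger2, from 133 to 0.055. Ptges overlapped Ptger1, Ptger1 overlapped Ptgds and Ptger3 overlapped Ptger2 across libraries, and the other neighbours did not overlap. The order in the libraries labelled OEIRF7 was Ptgs2, Ptgis, Ptgs1, Hpgd, Ptger4, Ptges, Ptgds, Ptger1, Ptger2 and Ptger3, from 232 to 0.015. Ptgs2, from 177 to 384 FPKM, overlapped Ptgis, from 171 to 181 FPKM, so their order was not set by more than the spread. Ptges also overlapped Ptgds there.

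**Figure D4:**
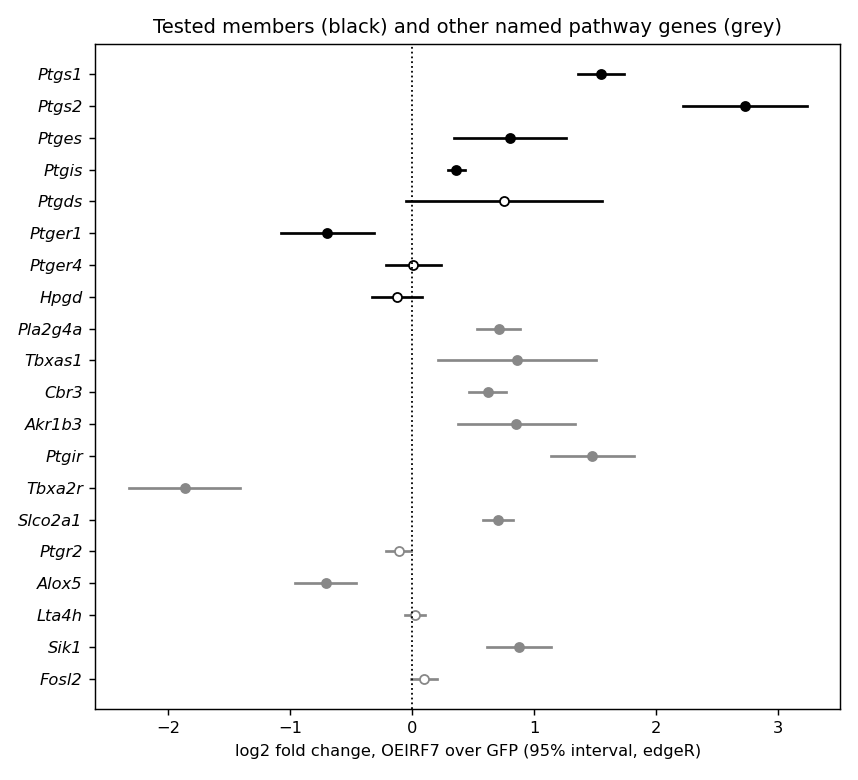
Log2 fold change of the libraries labelled OEIRF7 over those labelled GFP (horizontal axis) with 95% confidence intervals from edgeR, for the 8 tested genes (black) and other named genes of the pathway (grey). Filled points passed an adjusted p of 0.05, open points did not, and the dotted line is the median of all tested genes, 0.0015, with Ptgs2 the farthest right at 2.73 and Tbxa2r the farthest left at -1.86.

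Upstream of the cyclooxygenases, Pla2g4a, the cytosolic phospholipase A2 that releases arachidonic acid, rose. It was at 67.7, 66.3, 79.6 and 72.6 CPM in the libraries labelled GFP and at 108, 111, 142 and 107 CPM in those labelled OEIRF7. The groups did not overlap, and OEIRF7 replicate 3 was the highest. Its log2 fold change was 0.71 (SE 0.083, adjusted p = 3.67e-06), and 0.60 (adjusted p = 1.16e-07) without that library. Of 16 phospholipase A2 genes 5 were tested, of which 2 were called higher and none lower, with a median log2 fold change of 0.28. The other call was Pla2g6, at 0.28 (adjusted p = 0.0119), named after its value was seen. Counts called in this list and those below stand beside all tested genes, of which 29.0% were called higher and 29.9% lower. None of these counts is read as particular to its list.

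Of 8 other genes of prostanoid synthesis, all tested, 5 were called higher and 1 lower, with a median of 0.28. Without OEIRF7 replicate 1 only 3 were called higher, and 2 were called lower without GFP replicate 3 or OEIRF7 replicate 2. Akr1b3, an aldose reductase with prostaglandin F synthase activity, was abundant, at 327, 267, 395 and 283 CPM against 504, 398, 975 and 420 CPM. Each OEIRF7 library was above each GFP library, the lowest of them by little, and OEIRF7 replicate 3 stood at 2.21 times the others. The log2 fold change of 0.85 (SE 0.22, adjusted p = 0.0043) became 0.47 (adjusted p = 0.00107) without that library. Cbr3, a carbonyl reductase, went from 17.9 ± 1.29 to 27.4 ± 2.09 CPM (SD, n = 4), a log2 fold change of 0.62 (SE 0.07, adjusted p = 2.47e-06). Tbxas1, thromboxane synthase, had 2.24, 0.481, 1.34 and 1.60 CPM against 2.64, 3.14, 2.20 and 2.35 CPM. These levels overlapped between groups, and the call (log2 fold change 0.86, adjusted p = 0.0238) was lost without GFP replicate 3 (adjusted p = 0.0535), OEIRF7 replicate 1 (0.0502) or OEIRF7 replicate 2 (0.0749). Of the other prostaglandin E synthases, Ptges2 was called lower on the counts (log2 fold change -0.26, adjusted p = 0.0106) but not by limma on FPKM, which overlapped between groups, and Ptges3 was at 99.6 ± 3.17 and 96.9 ± 1.86 CPM (SD, n = 4, adjusted p = 0.362). Both were named after their values were seen.

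Of 5 other prostanoid receptors 2 passed the filter on low counts, and they moved in opposite directions. Ptgir, the prostacyclin receptor, was at 1.42, 2.20, 2.19 and 1.75 CPM in the libraries labelled GFP and at 5.39, 5.79, 4.44 and 5.39 CPM in those labelled OEIRF7. The groups were well apart, with a log2 fold change of 1.48 (SE 0.16, adjusted p = 1.51e-06), or 2.79-fold. Tbxa2r, the thromboxane receptor, was at 7.95, 9.13, 8.43 and 7.21 CPM and fell to 1.63, 2.31, 1.37 and 3.69 CPM. Again the groups did not overlap, with a log2 fold change of -1.86 (SE 0.21, adjusted p = 2.79e-06), or 3.64-fold lower. Per length, Ptgir was 0.132 ± 0.016 times Tbxa2r in the libraries labelled GFP and 1.49 ± 0.490 times in those labelled OEIRF7 (SD, n = 4). The median of the 2 was -0.19, which describes neither. The receptors Ptgdr, Ptgdr2 and Ptgfr were not tested, and Ptgdr had no count in any library.

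**Figure D5:**
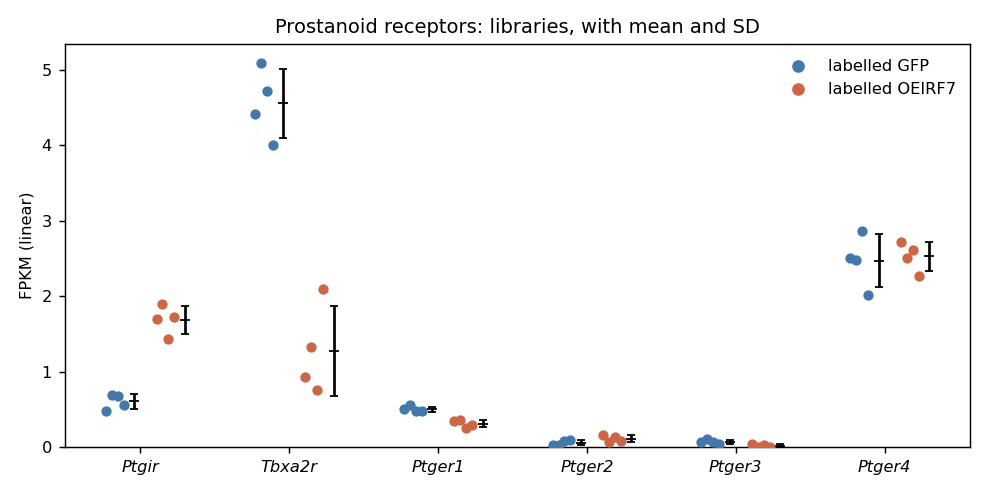
FPKM (linear axis from 0) of 6 prostanoid receptor genes in 4 libraries labelled GFP (blue) and 4 labelled OEIRF7 (orange), with the mean and SD of each group in black. Ptgir is higher and Tbxa2r lower in each OEIRF7 library, Ptger4 overlaps around 2.5 FPKM, and Ptger2 and Ptger3 lie close to 0.

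Of 5 genes of prostanoid transport and breakdown 2 were called higher and 1 lower, with a median of 0.07. The lower call was lost without GFP replicate 2 or OEIRF7 replicate 1, with library size alone and by limma on FPKM, and 2 were called lower without GFP replicate 1 or with the replicate block. Slco2a1, the prostaglandin transporter that takes prostaglandins into cells, was at 75.2, 61.0, 72.5 and 68.9 CPM against 112, 108, 113 and 120 CPM. Its groups did not overlap, with a log2 fold change of 0.70 (SE 0.056, adjusted p = 6.54e-08). Ptgr2, a reductase that acts after Hpgd and the most abundant of the list by FPKM, was at 58.8 ± 3.97 and 54.5 ± 1.29 CPM (SD, n = 4, adjusted p = 0.0621).

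In the lipoxygenase and leukotriene branch, which draws on the same arachidonic acid, 6 of 14 genes were tested, 1 was called higher and 2 lower, and the median was 0.17. Without OEIRF7 replicate 2 there were 2 called higher, and by limma on FPKM 0. Alox5, arachidonate 5-lipoxygenase, fell from 6.07 ± 0.551 to 3.71 ± 0.338 CPM (SD, n = 4), a log2 fold change of -0.71 (SE 0.12, adjusted p = 9.85e-05). Lta4h, leukotriene A4 hydrolase and the most abundant of the list, was at 83.9 ± 3.10 and 85.3 ± 1.84 CPM (adjusted p = 0.618). Of 10 genes that cAMP is known to induce, 3 were called higher and 1 lower, with a median of 0.30, and 5 were called higher without GFP replicate 3. Sik1, a kinase gene induced by cAMP, went from 5.15 ± 0.966 to 9.49 ± 0.665 CPM (SD, n = 4, log2 fold change 0.88, adjusted p = 2.14e-05). Fosl2, the most abundant, was at 201 ± 10.9 and 214 ± 14.3 CPM (adjusted p = 0.107). Areg, an EGF family ligand outside the naming rule for its low mean and named after its value was seen, had a mean of 0.07 CPM against 1.14 CPM, with no overlap between groups. The remaining calls were Crem, higher, and Pde4b, lower, also named after their values were seen.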

How the data were processed

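RNA-seq was analysed for 4 libraries labelled GFP and 4 labelled OEIRF7, grouped by the titles in the labels. The authors trimmed reads with Trimmomatic, mapped them to GRCm38 with HISAT2, counted them per gene with HTSeq-count and deposited raw counts, and also deposited FPKM from Cufflinks, rounded to 2 decimals. Tool versions and the strand setting of the counting are not given in the sources used here. The labels name a SMARTER library kit and the paper a stranded one. Columns of the authors' own comparison (group means of FPKM, log2 ratio, p-value and FDR) were not used. In 121 gene symbols the letters GFP stand in place of nc, and these were restored by Ensembl identifier. Coordinates came from GENCODE M21 and promoters from RefSeq.

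The groups were compared on the counts by edgeR 4.0.16 in R 4.3.3 (filterByExpr, TMM, glmQLFit and glmQLFTest without covariates, two-sided, Benjamini-Hochberg over 13533 genes, threshold 0.05). SEs are the log2 fold change over the root of F. Log2 CPM used a prior count of 2. Single values were compared by an exact two-sided permutation test. FPKM was used to compare levels between genes. The script for the count test was tested on simulated data. Alternatives were DESeq2 1.42.0, library size alone, upper-quartile scaling, DESeq2 size factors, a block for the replicate number, minima of 1 count in total or 10 in every library, each library left out, and limma 3.58.1 on log2(FPKM + 1) and log2(FPKM + 0.1). At total counts of 24454801 to 28658826, genes under about 1 CPM rest on few counts, and intervals of count ratios cover counting error only.

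The 10 genes and the lists were chosen with earlier results of these data known. Beside the 10 genes and Irf7, the text names genes of the other pathway lists with an adjusted p under 0.05, a log2 fold change past 0.58 and a mean of at least 1 CPM, and the most abundant of each list. Others are said to be named after their values were seen, or are cell type markers and overlapping genes that bear on a result.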

Additional observations from a re-analysis of the deposited data

Results flagged for a closer look

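In groups of 4 libraries, 5 values stood apart from the other 3 by Dixon's criterion (the gap to the nearest library against the whole range) among 80 groups of values examined, and chance gives about 1 in 20. Of these, 4 were in OEIRF7 replicate 3. Ptgs2 was at 1706 CPM there and at 777 to 815 CPM in the other libraries of the group. The log2 ratio of Ptgs2 to Ptgs1 FPKM was 3.84, against 2.96 to 3.06, and the share of Ptgs2 in the FPKM of both was 93.5%, against 88.6% to 89.3%. These 3 values share the Ptgs2 level of that library. Pla2g4a was at 142 CPM there, against 107 to 111 CPM. The remaining value was Pla2g6, at 22.6 CPM in GFP replicate 2 against 29.4 to 29.9 CPM. Akr1b3, at 975 CPM in OEIRF7 replicate 3, was not among them. The cause of these values was not tested.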

How the results depend on the processing

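Ptgs1, Ptgs2, Ptges and Ptgis stayed called higher, and Ptger1 lower, under all 17 alternatives, and Ptgds, Ptger4 and Hpgd were called under none of those that tested them. With at least 1 count in total as the filter, 2 of the 10 genes were called lower, since Ptger3 then entered the test with an adjusted p of 0.0465, from 21 counts in all. Leaving out single libraries gave log2 fold changes of 2.36 to 2.85 for Ptgs2 and of 0.58 to 1.0 for Ptges. The replicate numbers were not taken as pairs, since the labels do not state a pairing. Deviations of libraries with the same number correlated at 0.0792 to 0.138, and all 8 libraries correlated best with their own number. With the replicate block the SE was 0.10 in place of 0.24 for Ptgs2 and 0.045 in place of 0.088 for Ptgs1. It was larger with the block for Ptgds, Ptger1 and Hpgd. With the replicate block, 4057 genes were called higher and 4154 lower, and 4 and 1 of the 10 genes. In the same paired form the log2 ratio of Ptgs2 to Ptgs1 differed by 1.11 with p = 0.125 in an exact sign-flip test, the smallest that 4 pairs allow. The block called 6 cAMP-induced genes higher in place of 3, and library size alone also 6. By counts per base of the longest transcript, Ptger4 made up 83.9% of the EP receptors in the libraries labelled OEIRF7. No alternative reversed a direction that had been called.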
